A study of Rattus norvegicus with 10 samples.

Results

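8 mesothelial marker genes were followed: Upk1b, Upk3b, Bnc1, Wt1, Lrrn4, Msln, Efemp1 and Gpm6a. Every probe set annotated to one of these symbols alone was taken, which gave 10 probe sets for 7 of the 8 genes, out of 31042 probe sets and 14217 genes in all. No probe set here is annotated to Upk3b, so it was not analysed. The genes were chosen from earlier results of the same 10 arrays, in which mesothelial markers stood higher in BB than in F344 islets and no longer did so without the DR+/+ arrays. Values that set DR+/+ against another group, or a BB-related group against an F344 group, are therefore descriptions and carry no test. The comparisons with and without lyp inside one background did not choose the genes and were tested.

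The mesothelium is the single sheet of flat cells that covers the abdominal organs, the pancreas included, and lines the body cavities. Its cells join epithelial traits with a mesenchymal origin and can take on a fibroblast form. They are recognised by a small set of genes, among them the transcription factor gene Wt1.

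The study measured RNA in pancreatic islets of rats 40 days old, with 10 Affymetrix arrays in 5 groups of 2. BioBreeding (BB) rats develop autoimmune diabetes when they carry the lymphopenia mutation lyp in homozygous form. DR+/+ carries no lyp mutation and is labelled diabetes resistant but inducible; JBlyp/lyp is homozygous for lyp and labelled diabetes prone; JB has no lyp mutation and is labelled like DR+/+. F344lyp and F344 are healthy controls, with and without lyp going by their names. The labels do not say whether F344lyp is homozygous for lyp. The protocols say that DRlyp/+ breeders gave rise to both DR+/+ and JBlyp/lyp, that islet donors were male, and that animals fasted; they name DRlyp/lyp among the donors but neither JB group. The labels call the arrays biological replicates without saying whether each holds 1 animal or a pool, so a p-value here reflects how far these arrays scatter, which may be technical. Values are log2 intensities made with RMA, a method that corrects background, equalises the arrays and gives 1 value per probe set.

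The arrays carried islet RNA, with Ins1 between 13.86 and 14.27 and Ins2 between 13.42 and 13.98. The DR+/+ pair stood apart from the other 8 arrays well beyond the mesothelial genes. In DR+/+, 10 of 10 measured beta cell markers and 16 of 18 acinar markers lay below all other arrays, where 24.8% of all genes did, and the glucagon gene Gcg was at 11.19 and 11.27, against 12.95 to 13.74 elsewhere. The 3′ minus 5′ difference of Gapdh, a measure of RNA integrity that grows with degradation, was 3.18 and 3.39 in DR+/+, 2.75 to 2.97 in JBlyp/lyp, 3.31 to 3.71 in JB, 2.19 to 2.2 in F344lyp and 2.35 to 2.43 in F344. The same measure from beta-actin ordered the groups otherwise. It was 2.57 and 2.86 in DR+/+ and 2.72 and 2.77 in F344lyp. The other groups were higher, with 3.06 and 2.95 in F344, 3.43 and 3.3 in JBlyp/lyp, and 4.17 and 3.4 in JB. The part of RNA integrity in the results below was not tested. The arrays measure RNA shares of a mixture, so more mesothelial cells and more RNA per cell cannot be told apart.

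In DR+/+ islets, 6 of the 7 measured marker genes stood far above every other array, and Msln alone stood below. Of the 10 probe sets, 8 had both DR+/+ arrays above the other 8 arrays (17.2% of all probe sets did) and 1 had both below (18.8% of all). The same 8 exceeded the mean of the other 4 groups by at least 2 on the log2 scale, which 1.10% of all probe sets did; since these values chose the genes, nothing is read from those shares. The median difference over the 7 genes, each by its probe set of highest mean, was 3.31.

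**Figure D1:**
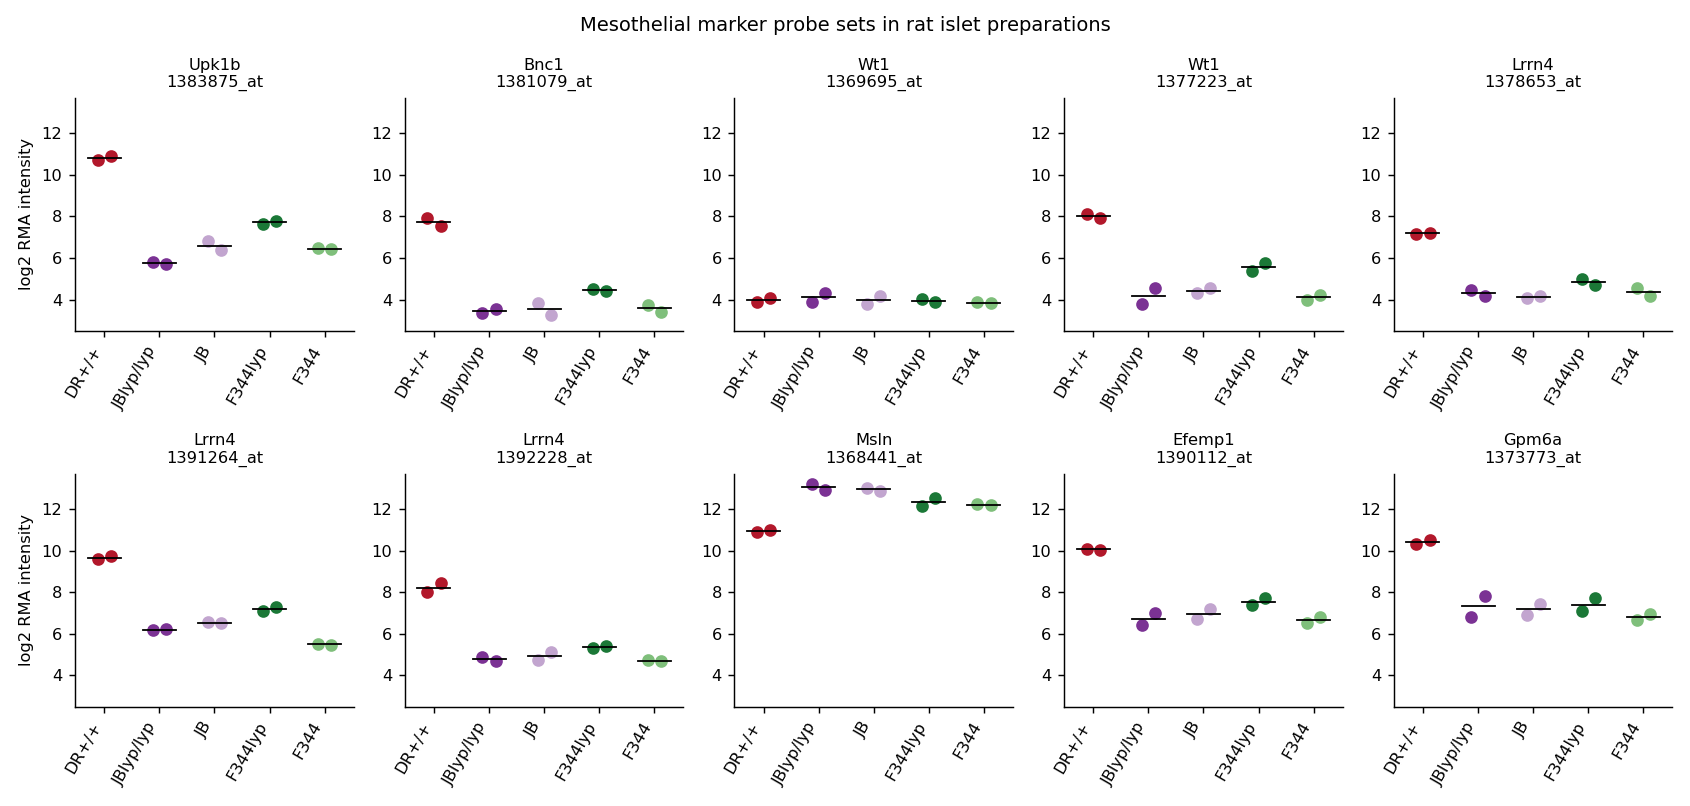
Log2 RMA intensity (vertical axis) of the 10 mesothelial marker probe sets in the 5 groups, with 1 point per array and a line at the mean of the 2 arrays. In 8 panels both DR+/+ points lie above all others, in the Msln panel both lie below, and the first Wt1 probe set is flat between 3.77 and 4.34.

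The transcription factors come first. Wt1 encodes a zinc finger factor of mesothelium, kidney and gonad, and has 2 probe sets. On 1377223_at it read 8.12 and 7.91 in DR+/+, 3.81 and 4.56 in JBlyp/lyp, 4.31 and 4.57 in JB, 5.40 and 5.77 in F344lyp, and 4.0 and 4.23 in F344. The DR+/+ arrays were highest and the F344lyp pair followed with no overlap, while JB, JBlyp/lyp and F344 overlapped. DR+/+ exceeded the mean of the other groups by 3.44 (SE 0.19). The other Wt1 probe set lay below the median of its array on all 10 arrays, between 3.77 and 4.34, and differed by 0.02 (SE 0.15). The 2 probe sets thus disagree, and Wt1 is described here by 1377223_at.

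Bnc1, which encodes the zinc finger protein basonuclin 1, read 7.95 and 7.53 in DR+/+, 3.35 and 3.57 in JBlyp/lyp, 3.82 and 3.25 in JB, 4.53 and 4.43 in F344lyp, and 3.74 and 3.42 in F344. Only the DR+/+ arrays exceeded the array median. F344lyp came second without overlap, and F344, JB and JBlyp/lyp overlapped. The DR+/+ difference was 3.97 (SE 0.17). Its relative Bnc2, which is a fibroblast gene as well, differed by 1.83 (SE 0.20), with 6.83 and 7.59 in DR+/+ against 4.71 to 5.81 elsewhere.

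The surface proteins come next, and among the 10 probe sets that of Upk1b had the widest range, at 5.23. Upk1b is a tetraspanin first described in the plaques of the bladder lining. It read 10.70 and 10.92 in DR+/+, 5.81 and 5.70 in JBlyp/lyp, 6.80 and 6.40 in JB, 7.65 and 7.78 in F344lyp, and 6.47 and 6.42 in F344. F344lyp was second and JBlyp/lyp lowest, each apart from its neighbour, and JB overlapped F344. DR+/+ exceeded the mean of the other groups by 4.18 (SE 0.13), the largest of these differences. Of the other measured uroplakin genes, Upk1a differed by 0.03, Upk2 by -0.03 and Upk3a by -0.07, and the related Upk3bl1 by -0.34 (SE 0.14), each with overlapping arrays.

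Lrrn4, a membrane protein with leucine-rich repeats, has 3 probe sets. The brightest, 1391264_at, read 9.58 and 9.73 in DR+/+, 6.16 and 6.21 in JBlyp/lyp, 6.57 and 6.51 in JB, 7.10 and 7.29 in F344lyp, and 5.53 and 5.44 in F344. No neighbouring groups overlapped in the order DR+/+, F344lyp, JB, JBlyp/lyp and F344. The difference of DR+/+ was 3.31 (SE 0.11), and on the other probe sets it was 2.77 (SE 0.14) and 3.27 (SE 0.14). These also placed F344lyp second without overlap, while JB, JBlyp/lyp and F344 overlapped in part. Its relatives Lrrn2 and Lrrn3 went the other way, at -1.0 (SE 0.14) and -1.23 (SE 0.21), with both DR+/+ arrays below all others.

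Gpm6a, a membrane proteolipid best known from neurons, read 10.30 and 10.52 in DR+/+, 6.80 and 7.84 in JBlyp/lyp, 6.91 and 7.43 in JB, 7.08 and 7.71 in F344lyp, and 6.67 and 6.96 in F344. Apart from DR+/+, which was higher by 3.23 (SE 0.26), all neighbouring groups overlapped. The brighter probe set of the related Gpm6b went the other way, with 8.02 and 7.87 in DR+/+ against 8.50 to 9.57 elsewhere, while its dim one differed by 0.31.

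Efemp1 encodes fibulin-3, a secreted protein of the extracellular matrix. It read 10.10 and 10.01 in DR+/+, 6.40 and 7.00 in JBlyp/lyp, 6.72 and 7.18 in JB, 7.38 and 7.70 in F344lyp, and 6.52 and 6.81 in F344. DR+/+ was higher by 3.09 (SE 0.18), F344lyp came second without overlap, and the remaining groups overlapped. Of the other fibulins, Fbln2 differed by 1.56 (SE 0.12), Efemp2 by 0.86 (SE 0.14), Fbln5 by 0.80 and Fbln1 by 0.57. The dimmer probe sets of Efemp2 and Fbln1 differed by -0.05 and 0.27.

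Msln, the gene of mesothelin, a surface glycoprotein named for this cell type, did not follow. It read 10.91 and 10.99 in DR+/+, 13.19 and 12.89 in JBlyp/lyp, 13.01 and 12.88 in JB, 12.14 and 12.55 in F344lyp, and 12.24 and 12.17 in F344. The DR+/+ arrays were the lowest, by -1.68 (SE 0.14) against the mean of the other groups, JBlyp/lyp overlapped JB at the top, and F344lyp overlapped F344. Mslnl, its relative and next neighbour in the RefSeq table of assembly GRCr8, was also lowest in DR+/+, at 5.18 and 4.64, against 5.88 to 7.75 elsewhere, a difference of -1.84 (SE 0.24). In these preparations the Msln signal therefore ran against the label of the group.

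The 10 genes whose profile was closest to Msln over the 10 arrays, out of those with a range of at least 2 on the log2 scale, were looked up after its values had been seen. They include Chgb, a granule protein of endocrine cells, Neurod1, a transcription factor of endocrine cells, and Glp1r, the GLP-1 receptor gene of beta cells. Pearson's r was 0.982 for Chgb, 0.981 for Neurod1 and 0.986 for Glp1r, and over the 8 arrays without DR+/+ it was 0.920, 0.935 and 0.938 in the same order. Like Msln, these genes were lower in the F344 groups than in JB and JBlyp/lyp. Glp1r read 6.31 and 6.25 in DR+/+, 8.81 to 9.21 in JBlyp/lyp, 8.89 to 9.21 in JB, 7.89 to 7.96 in F344lyp and 8.06 to 8.07 in F344. The beta cell markers Ptprn2 and Ptprn were instead higher in the F344 groups. Ptprn2 read 8.94 to 9.46 in JB and JBlyp/lyp and 10.68 to 11.13 in F344 and F344lyp. Ptprn read 9.60 to 10.46 and 10.76 to 11.06 in the same order. The median of the centred beta cell list was 0.23 to 0.27 in JB and 0.24 to 0.39 in JBlyp/lyp. It was 0.49 to 0.56 in F344 and 0.20 to 0.63 in F344lyp. The other 7 of the 10 genes closest to Msln were Gde1, Cbarp, Gabbr2, Nell2, Plppr4, Myh10 and Ntrk2, with r between 0.980 and 0.992, and between 0.905 and 0.991 without DR+/+.

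Promoters were read for the genes that stood together. The RefSeq table of assembly GRCr8 holds a promoter for 7 of the 8 genes, all but Msln, and the 250 bases before the start it uses were searched on both strands for 4 motifs. These are the GC box GGGCGG, in 32.4% of 27457 promoters, GGAATG of the TEAD factors in 11.8%, TATAAA in 13.1%, and GCGNGGGCG, which the zinc finger factors Wt1 and Egr1 recognise, in 4.53%. The motifs can share letters with each other, but no matches overlap in the windows of these genes. The start used by the table is the outer edge of the gene record for Upk3b, Bnc1, Lrrn4 and Gpm6a, and lies inside the record by 137 bases for Upk1b, 95 for Efemp1 and 2288 for Wt1, whose window is thus no upstream sequence of the whole gene. 3 promoters are shown, those of the genes with called lyp differences below that hold a match, and that of Bnc1 for its GC boxes; capitals mark the matches. Upk1b, of which the 113 bases outside the gene record are shown, lies at chr11:75459131-75459243 on the plus strand, Lrrn4 at chr3:140603987-140604236 on the minus strand and Bnc1 at chr1:145352535-145352784 on the minus strand.
Upk1b: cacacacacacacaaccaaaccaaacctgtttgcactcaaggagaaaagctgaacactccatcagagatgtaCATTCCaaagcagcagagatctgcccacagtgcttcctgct
Lrrn4: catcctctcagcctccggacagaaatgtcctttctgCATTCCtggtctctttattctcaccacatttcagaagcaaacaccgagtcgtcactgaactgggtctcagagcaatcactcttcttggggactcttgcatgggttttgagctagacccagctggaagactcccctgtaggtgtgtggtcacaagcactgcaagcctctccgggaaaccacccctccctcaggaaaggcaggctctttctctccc
Bnc1: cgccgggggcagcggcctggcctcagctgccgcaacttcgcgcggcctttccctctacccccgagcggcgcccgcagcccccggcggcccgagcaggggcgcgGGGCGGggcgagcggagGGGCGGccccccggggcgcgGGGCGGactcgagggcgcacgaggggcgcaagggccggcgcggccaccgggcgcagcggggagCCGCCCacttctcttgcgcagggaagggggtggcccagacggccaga

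Upk1b and Lrrn4 each hold 1 match to the TEAD letters, written CATTCC on the strand shown, and no GC box. Bnc1 holds 4 GC boxes in a stretch of 82.0% G and C, against a median of 52.0% over all promoters. Efemp1 and Gpm6a hold 1 GC box each, that of Efemp1 inside the gene record. The windows of Wt1 and Upk3b hold none of the 4 motifs. The letters GCGNGGGCG and TATAAA occur in none of the 7 windows. A match is a run of letters and not a known binding site.

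The effect of lyp was then tested within each background with limma, a linear model fitted to every probe set, with Benjamini-Hochberg adjusted p-values and a threshold of 0.05. This effect means the difference between the groups with and without lyp, by their labels and names. The part of other differences between these lines was not tested. In the F344 background, 3 of the 10 probe sets rose, of Lrrn4, Wt1 and Upk1b, and 0 fell, against 1.51% called among all probe sets. Lrrn4 (1391264_at) rose by 1.71 (SE 0.13, 3.27-fold, adjusted p = 0.000283, limma, n = 2 F344lyp and 2 F344 arrays). Wt1 (1377223_at) rose by 1.47 (SE 0.24, 2.77-fold, adjusted p = 0.0201), and Upk1b by 1.27 (SE 0.16, 2.41-fold, adjusted p = 0.00555). Their F344lyp values, given above, were both higher than both F344 values. The Wt1 probe set exceeded the array median on only 3 of the 10 arrays, and neither F344 array was among them.

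The other markers pointed the same way without passing. Bnc1 differed by 0.90 (SE 0.22, adjusted p = 0.087), Efemp1 by 0.88 (SE 0.23, adjusted p = 0.105) and Gpm6a by 0.58 (SE 0.33, adjusted p = 0.44). The other Lrrn4 probe sets differed by 0.68 (adjusted p = 0.0988) and 0.48 (adjusted p = 0.218). Like Bnc1, each of them exceeded the array median on only 2 of the 10 arrays, those of DR+/+. Msln stood at 0.14 (adjusted p = 0.754) and the flat Wt1 probe set at 0.10 (adjusted p = 0.851). Both F344lyp arrays lay above both F344 arrays on 8 of 10 probe sets, against 27.8% of all, and above the 6 arrays of JBlyp/lyp, JB and F344 on 7 of 10, against 11.9% of all. These probe sets stand for 6 and 5 of the 7 genes.

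The Lrrn4 call held in all 14 alternatives, with differences of 1.61 to 1.81. These are not 14 separate checks. For this comparison the fits without either or both DR+/+ arrays gave the same values. So did the fits without JB replicate 1 or 2, and those without JBlyp/lyp replicate 1 or 2. The Upk1b call ended without F344 replicate 1 (adjusted p = 0.078), F344 replicate 2 (adjusted p = 0.0993) or F344lyp replicate 2 (adjusted p = 0.0924), and 1 of 10 probe sets was then called. The Wt1 call ended without F344 replicate 1 (adjusted p = 0.216), F344 replicate 2 (adjusted p = 0.145), F344lyp replicate 1 (adjusted p = 0.0635) or F344lyp replicate 2 (adjusted p = 0.24).

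In the JB background, 0 of the 10 probe sets were called by limma, and 1 of 31042 probe sets (0.00322%) was called in all. At an unadjusted p under 0.05 were 2 of the 10 probe sets, and 857 of all 14217 genes by their probe set of highest mean. Upk1b was at -0.84 (SE 0.16, adjusted p = 0.278) and Lrrn4 (1391264_at) at -0.35 (SE 0.13, adjusted p = 0.729), and on both the JBlyp/lyp arrays lay below the JB arrays. That order held for 2 of 10 probe sets, against 15.9% of all, and the opposite order for 0, against 13.9% of all. The other probe sets lay between -0.26 and 0.19. Wt1 (1377223_at), Bnc1 and Efemp1 had negative values here and Gpm6a and Msln positive ones, and the dimmer probe sets of Wt1 and Lrrn4 were at 0.15, 0.19 and -0.15.

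The lyp effects of the backgrounds were compared by their difference, the effect in JB minus the effect in F344. It was called for 2 of the 10 probe sets, against 0.283% of all. For Upk1b it was -2.11 (SE 0.23, adjusted p = 0.00584, limma, n = 2 arrays in each of 4 groups), and for Lrrn4 (1391264_at) -2.07 (SE 0.19, adjusted p = 0.00232). Wt1 (1377223_at) was at -1.73 (SE 0.34, adjusted p = 0.11), Efemp1 at -1.12 (adjusted p = 0.362) and Bnc1 at -0.97 (adjusted p = 0.436). Gpm6a was at -0.43 (adjusted p = 0.891) and Msln at -0.03 (adjusted p = 0.991). The other 2 Lrrn4 probe sets, at -0.83 (adjusted p = 0.372) and -0.29 (adjusted p = 0.848), were not called. The Lrrn4 call held in all 14 alternatives, at -2.16 to -1.97, although the fits without either or both DR+/+ arrays gave the same values. That of Upk1b ended without F344 replicate 1 (adjusted p = 0.0584), F344 replicate 2 (adjusted p = 0.061) or F344lyp replicate 2 (adjusted p = 0.0702), which left 1 call.

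**Figure D2:**
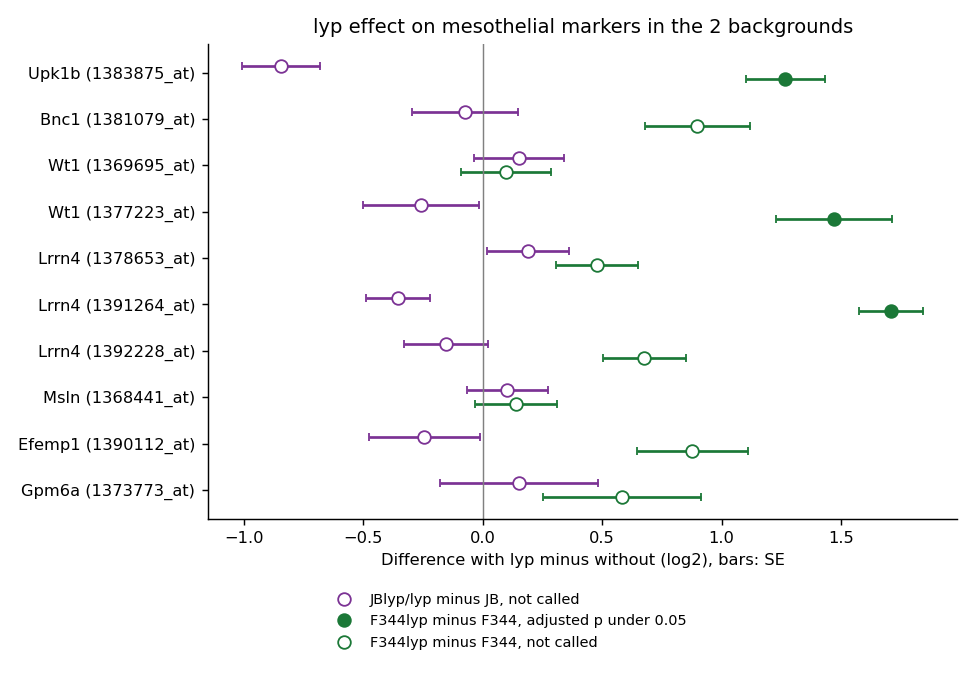
Difference with lyp minus without lyp (log2, horizontal axis, bars are the SE) for each probe set, JBlyp/lyp minus JB in purple and F344lyp minus F344 in green; filled points have an adjusted p under 0.05. The filled points are Upk1b at 1.27, Wt1 (1377223_at) at 1.47 and Lrrn4 (1391264_at) at 1.71, all in the F344 background.

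Genes of other cell types also differed between F344lyp and F344, where 1.58% of all genes rose and 0.317% fell. Of 13 duct markers, Muc1, a mucin of epithelial surfaces, rose by 1.57 (adjusted p = 0.00217, limma) and the bicarbonate transporter gene Slc4a4 by 0.93 (adjusted p = 0.0417), and 0 fell. The level of the duct list, as the median over its genes of values centred on each gene's mean, was -0.15 to 0.21 in F344lyp and 0.15 to 0.16 in F344. Of 18 acinar markers Cuzd1 rose by 2.27 (adjusted p = 0.000215), of 12 macrophage markers Adgre1 rose by 0.91 (adjusted p = 0.02), and of 11 adipose markers Cfd rose by 1.21 (adjusted p = 0.0493). Of 10 nerve markers, the neuron genes Prph, Nefm and Gap43 fell by 1.30, 1.02 and 1.17 (adjusted p = 0.00526, 0.00954 and 0.00636). Of 24 stellate and fibroblast markers Thy1 fell by 0.90 (adjusted p = 0.0201) and 0 rose. In that list 11 had an unadjusted p under 0.05 by limma, and the median difference was 0.19, against 0.04 over all genes. By the same measures, macrophage markers had 8 of 12 (median 0.44) and duct markers 6 of 13 (median 0.08). Nerve markers had 5 of 10 (median -0.62), acinar markers 4 of 18 (median 0.48) and adipose markers 4 of 11 (median 0.02). Of the beta cell, endothelial and smooth muscle markers 0 were called by limma. At an unadjusted p under 0.05 were 0 of 10, 5 of 13 and 1 of 8 of these, and 2442 of all 14217 genes. The acinar list stood at 1.26 to 1.48 in F344lyp and 0.93 to 1.11 in F344, and the macrophage list at 0.69 to 0.84 in F344lyp and 0.22 to 0.32 in F344. The nerve list stood at -0.20 to -0.12 in F344lyp and 0.68 to 0.70 in F344. Their part in the mesothelial result was not tested.

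For the difference between the lyp effects, 0.429% of all genes were called lower and 0.0492% higher. Muc1 was at -1.92 (adjusted p = 0.0114) and Cuzd1 at -2.50 (adjusted p = 0.00253), both with the sign of Upk1b and Lrrn4. Prph, Nefm and Gap43 were called with the opposite sign, at 1.52, 1.31 and 1.54 (adjusted p = 0.0353, 0.0377 and 0.0236).

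Without the DR+/+ arrays, each BB-related group was set against the F344 group with or without lyp by its name, again as descriptions. The lyp genotypes of JBlyp/lyp and F344lyp may differ, as the labels give no zygosity for F344lyp. For JBlyp/lyp minus F344lyp, Upk1b was at -1.96 (SE 0.16), Wt1 (1377223_at) at -1.40 (SE 0.24), Bnc1 at -1.02 (SE 0.22), Lrrn4 (1391264_at) at -1.01 (SE 0.13) and Efemp1 at -0.84 (SE 0.23), and Msln was at 0.70 (SE 0.17). Gpm6a was at -0.08 (SE 0.33). The Lrrn4 probe sets 1378653_at and 1392228_at were at -0.52 (SE 0.17) and -0.61 (SE 0.18). For JB minus F344, Lrrn4 (1391264_at) was at 1.05 (SE 0.13) and Msln at 0.73 (SE 0.17). The Lrrn4 probe sets disagreed here, with 1378653_at at -0.23 (SE 0.17) and 1392228_at at 0.22 (SE 0.18). Upk1b differed by 0.15, Wt1 (1377223_at) by 0.32, Efemp1 by 0.29, Gpm6a by 0.35 and Bnc1 by -0.05.

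A wider list of 30 genes reported in mesothelial cells was compared, of which 28 were measured. In DR+/+, 21 of the 28 lay above all other arrays and 1 below, where 18.0% and 24.8% of all genes did. Their median difference from the other groups was 1.22, against -0.05 over all genes, and 3.31 for the 7 markers. Ptgis, which makes prostacyclin, read 9.37 and 9.49 in DR+/+ against 6.17 to 6.61 elsewhere, a difference of 2.99 (SE 0.13). Podxl, the sialomucin podocalyxin, differed by 2.38 (SE 0.19), Fmod, the matrix proteoglycan fibromodulin, by 2.08 (SE 0.15) and Ildr2 by 2.07 (SE 0.15). Podxl and Ildr2 stand here by the brightest of several probe sets, which disagree. The retinoic acid enzyme gene Aldh1a2 differed by 1.39 (SE 0.12), the glycoprotein gene Pdpn by 1.64 (SE 0.14), Rspo1, a secreted Wnt agonist, by 0.84 (SE 0.12) and Nkain4 by 0.60 (SE 0.11).

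The keratins of the wider list, shared with duct and other epithelia, did not move together. Krt19 differed by 0.81 (SE 0.18), Krt8 by -0.44 and Krt7 by -0.99 (SE 0.25), and Krt19 and Krt7 also stand in the duct list. Krt18 read 10.28 and 10.43 in DR+/+ against 9.81 to 10.68 elsewhere. Calb2, the gene of calretinin, a common marker of mesothelium, read 5.43 and 5.27 in DR+/+ against 4.85 to 5.67 elsewhere. For lyp in F344, 1 of the 28 rose, the complement gene C3 by 2.04 (SE 0.26, adjusted p = 0.00555, limma), and 0 fell. For lyp in JB 0 of the 28 were called by limma, with 4 at an unadjusted p under 0.05. Of the 14 measured relatives of the markers 0 were called in either background, with 3 at an unadjusted p under 0.05 in the JB background and 2 in the F344 background. Over all 14217 genes these counts were 857 in the JB background and 2442 in the F344 background.

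Other cell types differed in DR+/+ as well. Stellate and fibroblast markers lay above all other arrays in 20 of 24 cases, where 18.0% of all genes did, and below in 1, Acta2, the smooth muscle actin gene, at -0.61 (SE 0.18). Their median difference was 1.30, led by the collagen crosslinker Lox at 2.27 (SE 0.32), Rgs5 at 1.95, Col1a2 at 1.91 and Pdgfrb at 1.73. Endothelial markers lay above in 9 of 13 cases and below in 0 (median 1.24), led by the transcription factor gene Sox17 at 3.04 (SE 0.19), Tek at 2.38, the VEGF receptor gene Kdr at 1.74 and Cldn5 at 1.58. Duct markers lay above in 6 of 13 and below in 4 (median 0.70), with Slc4a4 at 2.18, the tetraspanin gene Tspan8 at 2.07 the chloride channel gene Cftr at 2.03 and Car2 at 1.22. Acinar markers (median -2.07) and beta cell markers (median -2.12) stood lower, with the trypsin gene Prss2 at -3.55 (SE 0.17), Cpa1 at -3.03, Ctrb1 at -2.99 and Cuzd1 at -2.91 among the acinar markers. Among the beta cell markers the granule gene Ptprn2 was at -3.12 (SE 0.13), the glucose transporter gene Slc2a2 at -2.94, Ptprn at -2.93 and Glp1r at -2.23. Adipose markers lay above in 2 of 11 cases and below in 1, with a median of -0.04. Of these, Cfd, the adipsin gene, was at -1.64 (SE 0.20), the lipase gene Lpl at 0.94 (SE 0.15), the adiponectin gene Adipoq at 0.63 (SE 0.12) and Car3 at -0.43 (SE 0.19). Macrophage markers had a median of -0.63, with the complement genes C1qa at -2.22 and C1qc at -2.16, Mrc1 at -1.34 and Lyz2 at -1.06. Nerve markers had a median of -0.22, with Uchl1 at -3.14, Tubb3 at -1.23, S100b at 1.11 and Nefl at -0.88. Smooth muscle markers had a median of 0.08, with Myh11 at 1.03, Mylk at 0.99, Acta2 as above and Actg2 at -0.46. The part of these other cell types in the mesothelial values was not tested.

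**Figure D3:**
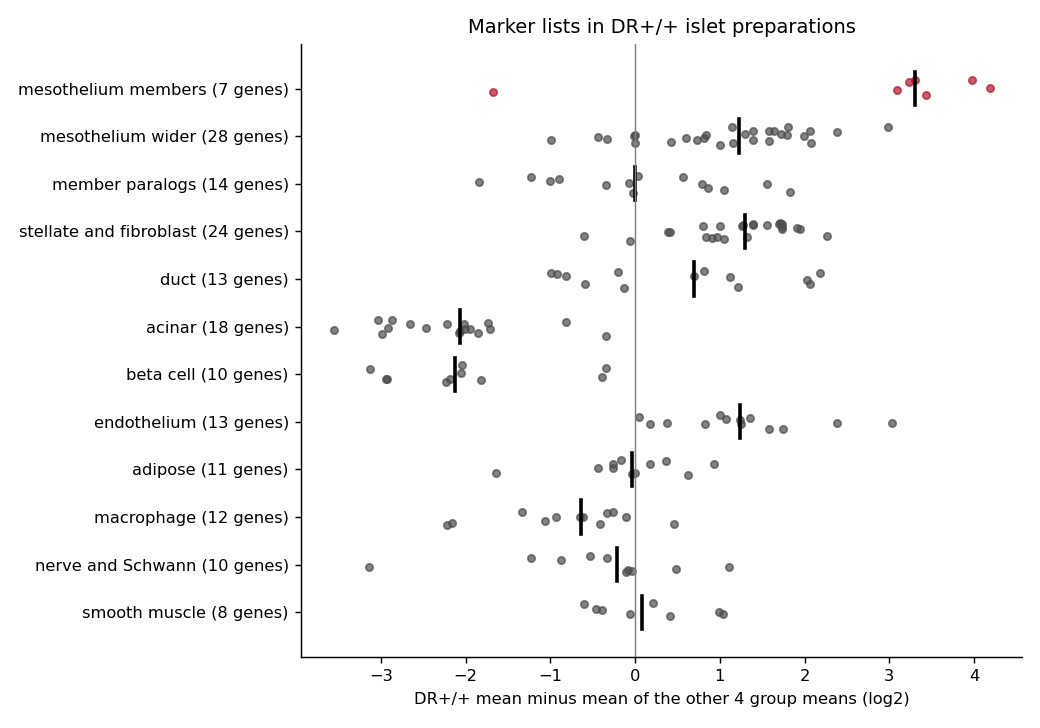
Difference of the DR+/+ mean from the mean of the other 4 group means (log2, horizontal axis) for each gene of the marker lists, 1 point per gene, with a black bar at the list median. The marker genes have a median of 3.31 with Msln alone at -1.68, and the acinar and beta cell lists have medians of -2.07 and -2.12.

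By array, each gene was centred on its mean over the 10 arrays and the median was taken over a list. The 7 markers stood at 2.57 to 2.70 in DR+/+, -1.18 to -0.71 in JBlyp/lyp, -0.74 to -0.50 in JB, -0.03 to 0.25 in F344lyp and -1.06 to -1.04 in F344. The stellate and fibroblast list was at 1.06 to 1.07 in DR+/+, -0.44 to -0.31 in JBlyp/lyp, -0.34 to -0.29 in JB, -0.08 to -0.07 in F344lyp and -0.31 to -0.28 in F344. Both lists were thus highest in DR+/+ and next highest in F344lyp. The endothelial list was at 0.95 to 0.96 in DR+/+ but at -0.47 to -0.26 in F344lyp and -0.39 to -0.19 in F344.

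**Figure D4:**
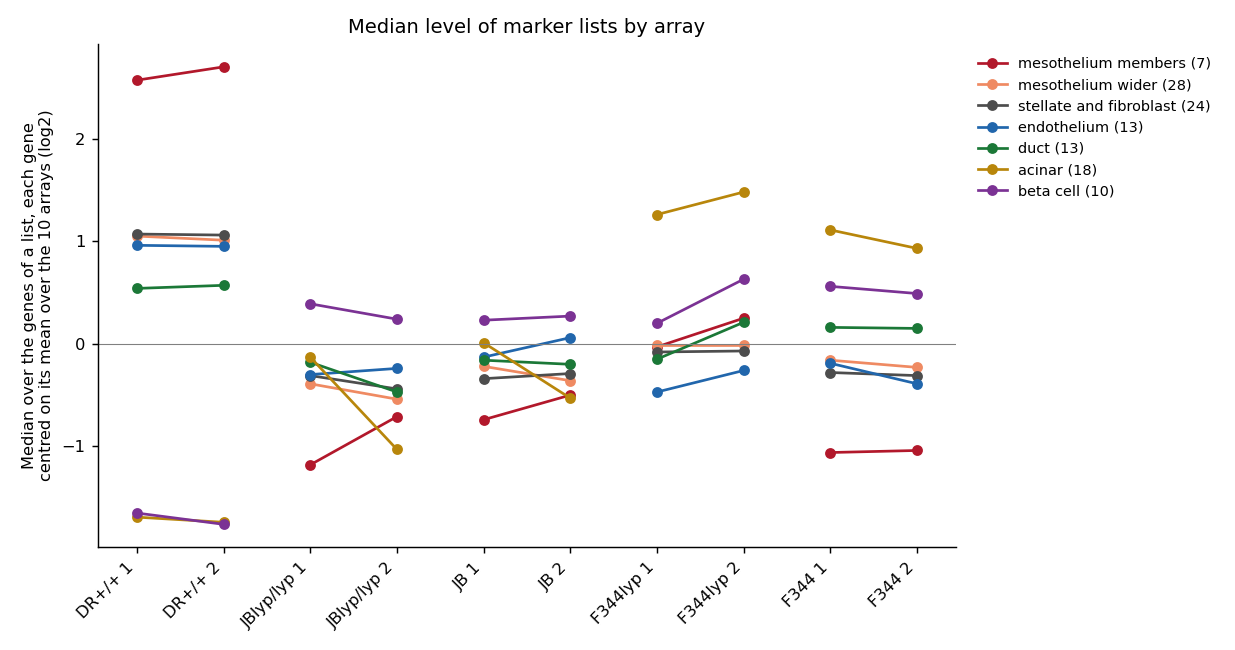
Median over the genes of 7 marker lists in each array (vertical axis, log2, each gene centred on its mean over the 10 arrays), with the 2 arrays of a group joined by a line and the number of genes in the legend. The mesothelial markers run from 2.57 to 2.70 in DR+/+ and from -0.03 to 0.25 in F344lyp, and are at -0.50 or lower in JBlyp/lyp, JB and F344.

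The members were compared with each other and with the rest of the array. Over the 10 arrays, the 28 pairs among the 8 probe sets that were high in DR+/+ correlated at 0.91 to 0.99. Over the 8 other arrays the range was -0.06 to 0.97 with a median of 0.715, highest for Wt1 (1377223_at) with Efemp1. Msln correlated with these 8 probe sets at -0.92 to -0.79 over 10 arrays and at -0.52 to 0.18 without DR+/+. The arrays share their groups and replicates, so these values are descriptions.

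Of 1595 other genes with a range of at least 2 on the log2 scale, Rnf144b, a ubiquitin ligase gene, had the profile closest to the mean of the 10 centred member probe sets (r = 0.994 over 10 arrays, 0.949 over the 8 without DR+/+). It read 8.77 and 8.74 in DR+/+, 6.44 and 6.71 in JBlyp/lyp, 6.44 and 6.89 in JB, 7.05 and 7.17 in F344lyp, and 6.35 and 6.37 in F344. The order of DR+/+ first and F344lyp second, both without overlap, was that of 7 of the 10 member probe sets. The exceptions were Gpm6a, Msln and the flat Wt1 probe set. Next were the complement protease gene C1r (0.992), Ppfibp2 (0.992), Ptgs2, the inducible cyclooxygenase gene (0.989), Mylip (0.989) and the fibrinogen chain gene Fgg (0.989). Ano1, a calcium-activated chloride channel gene (0.988), the lactate transporter gene Slc16a1 (0.987), Fndc1 (0.987) and Pros1, the gene of anticoagulant protein S (0.985), completed the 10. Without the DR+/+ arrays the r of these 9 was between 0.807 and 0.919. Slc16a1 had the largest step of the 10, at 9.15 and 9.31 in DR+/+ against 4.97 to 6.33 elsewhere.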

How the data were processed

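Islet RNA from 10 arrays in 5 groups of 2 was analysed. The deposited log2 values give 1 intensity per probe set and array; the submitters' processing notes name GCOS and RMA, without versions. Array medians ran from 5.39 to 5.44. 57 control probe sets were left out of 31099, and 31042 were tested.

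A mean per group was fitted across all probe sets with limma 3.58.1 (R 4.3.3; lmFit, contrasts, eBayes, two-sided; 5 residual and 4.72 prior degrees of freedom) and p-values were adjusted by Benjamini-Hochberg over all probe sets, without a filter on dim ones. SE is the moderated standard error. The script was tested on simulated data. Symbols come from the array annotation; 20826 probe sets have 1 symbol, and a gene in a list is represented by its probe set of highest mean. All 10 member probe sets matched RefSeq by gene ID. Promoters come from RefSeq (GRCr8), whose coordinates are not those of the probes.

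The members and lists were chosen with earlier results of these data known. Named were all members, the 4 genes of each list with the largest DR+/+ difference, list genes called for lyp, and the 10 genes closest to the members' mean profile; other wider-list genes, relatives, keratins and the genes like Msln were named after their values were seen. Alternatives were quantile normalization, a filter on dim probe sets, the replicate number as a block, a fit without DR+/+, the mean over probe sets, and leaving out each array. For arrays, their number limits the precision.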

Additional observations from a re-analysis of the deposited data

Results flagged for a closer look

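The lyp effect differed between the backgrounds for 2 of the probe sets, by the test of the difference itself. For Upk1b the effect in JB minus the effect in F344 was -2.11 (SE 0.23, adjusted p = 0.00584, limma with Benjamini-Hochberg adjustment), from -0.84 in JB and 1.27 in F344. For Lrrn4 (1391264_at) it was -2.07 (SE 0.19, adjusted p = 0.00232), from -0.35 in JB and 1.71 in F344. The other Lrrn4 probe sets, at -0.83 and -0.29, were not called (limma, adjusted p = 0.372 and 0.848). The Upk1b call ended in 3 of the 14 alternatives, and that of Lrrn4 (1391264_at) in 0. With 2 arrays per group, no group was large enough for a search for single deviating arrays.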

How the results depend on the processing

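The number of member probe sets called for lyp in F344 was 3, and 5 with the replicate block, which added Bnc1 (adjusted p = 0.0411) and Efemp1 (adjusted p = 0.0334). It ranged from 1 to 4 over the fits that each left out 1 array. Between the backgrounds, 2 differences in the lyp effect were called, with a range of 1 to 3, and for lyp in JB the number was 0 throughout. With the replicate block, Wt1 (1377223_at) was called for that difference (adjusted p = 0.0377), as it was without JBlyp/lyp replicate 2 (adjusted p = 0.0153). Efemp1 was called for lyp in F344 without either JBlyp/lyp array (adjusted p = 0.0425 each). Deviations of like-numbered arrays correlated at 0.652 for JB with JBlyp/lyp and at -0.101 to 0.237 over the other 9 pairs of groups, so the numbers were not shown to pair the arrays of all groups and no block stands in the fit. Quantile normalization, the filter on dim probe sets and the fit without DR+/+ kept every call of these comparisons. Of 501 recomputed single differences 21 changed sign, none of them called. Over all probe sets the count for lyp in F344 was 468, 745 with the replicate block, and 58 to 823 with 1 array left out; for the difference it was 88 and 18 to 130; for lyp in JB it was 1, 5 with the replicate block, 0 in the fit without DR+/+ and 0 to 4 with 1 array left out. The median DR+/+ difference of 3.31 stayed between 3.23 and 3.36 without each array. With the mean over all probe sets of a gene, the DR+/+ difference of Wt1 was 1.73 in place of 3.44, since 1 of its probe sets is flat, and with quantile normalization that of Msln was -1.38. The causes of the other changes were not tested.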
